A study of Mus musculus with 6 samples.

Results

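The genes described here encode the cornified envelope of the epidermis and the proteins laid down with it late in keratinocyte differentiation. They were chosen by name, as a list of 32 gene symbols, with earlier results of these data known. The same holds for the other gene lists below. Shares of called genes beside the share over all genes are therefore descriptions and no evidence of enrichment. Of these, 31 were found among the 24014 genes in the count tables: 12 Lce1 genes, 3 Lce3 genes and 16 envelope genes outside the Lce families. The remaining listed symbol is not analysed here.

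RNA was sequenced from epidermal cells of the back skin of wild type mice at postnatal day 2. The blister group (3 libraries) came from skin on which a suction blister had been raised by negative pressure of 523.4 ± 1.3 mmHg through a syringe 4 mm wide, and which was healing at collection. The control group (3 libraries) came from control skin of the same age, and both groups were released with 0.25% trypsin and passed through a 70 µm filter. No strain is named. Nor is it stated that each library stems from its own animal, so p-values measure the spread between libraries, part of which may be technical. Xist was high and the Y-linked Ddx3y low in some libraries of each group and the reverse in the rest, so neither group can have come from 1 animal alone. Each library is a bulk sample, in which fewer cells of a type and less RNA per cell cannot be told apart. Krt14, a keratin of the basal layer, was at 7435 CPM or more and Krt10, a keratin of the layers above, at 17318 CPM or more in every library, so the labelled epidermal cells were present. Levels are given as CPM, counts scaled to a common library total with TMM factors, which correct for unequal RNA composition.

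As background, keratinocytes that leave the basal layer first build a scaffold of involucrin and the plakins envoplakin and periplakin under the plasma membrane. Transglutaminases then cross-link loricrin, small proline-rich proteins and the late cornified envelope (LCE) proteins onto it, and proteins of the filaggrin type condense the keratin inside. Most of these genes lie side by side in the epidermal differentiation complex. In human skin the LCE1 genes belong to normal epidermis, whereas LCE3 genes are known for their induction after barrier injury.

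The promoters of the members show how the families differ in sequence. They were taken from RefSeq on build GRCm38.p6, where 26 of the 31 members matched by symbol (Lce1f, Crct1, Kprp, Evpl and Ppl are named only). The 250 bases before the transcription start are printed for 5 genes that passed the test between groups (Lor and Crnn lower, Rptn, Krtdap and Lce3c higher in blister libraries). Lce1a1 and Lce1m stand for the Lce1 genes, which were lower in blister 1 and 2. Capitals mark matches, on either strand, to the AP-1 letters TGANTCA, the KLF letters GGGNGGG and the TATA box letters TATAAA, where N is any base. Lor lies at chr3:92083143-92083392, minus strand, Crnn at chr3:93144539-93144788, plus strand, Rptn at chr3:93393449-93393698, plus strand and Krtdap at chr7:30787655-30787904, plus strand. Lce3c lies at chr3:92944236-92944485, plus strand, Lce1a1 at chr3:92648308-92648557, minus strand and Lce1m at chr3:93019062-93019311, minus strand.
Lor: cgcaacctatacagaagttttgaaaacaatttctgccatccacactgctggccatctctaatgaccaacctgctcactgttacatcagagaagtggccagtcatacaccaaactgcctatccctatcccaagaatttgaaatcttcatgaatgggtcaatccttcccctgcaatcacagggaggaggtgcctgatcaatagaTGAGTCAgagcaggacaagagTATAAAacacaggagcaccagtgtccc
Crnn: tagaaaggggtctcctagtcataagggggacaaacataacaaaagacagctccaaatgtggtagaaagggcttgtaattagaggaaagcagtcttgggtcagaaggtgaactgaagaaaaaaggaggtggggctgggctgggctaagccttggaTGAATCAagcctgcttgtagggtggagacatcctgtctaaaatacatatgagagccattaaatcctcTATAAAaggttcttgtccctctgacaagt
Rptn: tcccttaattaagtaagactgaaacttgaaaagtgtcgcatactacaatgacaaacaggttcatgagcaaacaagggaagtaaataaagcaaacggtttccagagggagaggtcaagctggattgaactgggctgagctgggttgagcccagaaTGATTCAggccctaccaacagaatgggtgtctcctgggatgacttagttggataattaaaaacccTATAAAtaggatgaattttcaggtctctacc
Krtdap: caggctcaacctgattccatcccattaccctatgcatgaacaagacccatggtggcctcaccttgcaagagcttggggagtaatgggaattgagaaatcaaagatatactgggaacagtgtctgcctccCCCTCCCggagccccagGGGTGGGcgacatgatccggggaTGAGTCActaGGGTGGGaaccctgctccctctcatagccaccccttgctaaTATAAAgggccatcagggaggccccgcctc
Lce3c: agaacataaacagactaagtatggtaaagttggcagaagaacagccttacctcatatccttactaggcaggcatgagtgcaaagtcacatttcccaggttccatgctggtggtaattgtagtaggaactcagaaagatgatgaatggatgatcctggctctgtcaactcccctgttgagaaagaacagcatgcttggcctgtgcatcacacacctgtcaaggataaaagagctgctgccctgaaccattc
Lce1a1: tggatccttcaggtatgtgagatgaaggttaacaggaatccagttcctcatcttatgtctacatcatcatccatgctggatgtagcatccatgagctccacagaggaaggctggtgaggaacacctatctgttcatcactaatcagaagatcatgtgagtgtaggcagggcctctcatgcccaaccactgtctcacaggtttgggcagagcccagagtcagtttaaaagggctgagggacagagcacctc
Lce1m: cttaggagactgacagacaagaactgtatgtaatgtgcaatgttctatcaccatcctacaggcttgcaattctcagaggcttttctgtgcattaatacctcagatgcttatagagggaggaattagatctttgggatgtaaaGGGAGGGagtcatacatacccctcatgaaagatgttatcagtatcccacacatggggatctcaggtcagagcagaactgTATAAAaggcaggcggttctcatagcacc

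The AP-1 letters were found in 8 of 12 promoters outside the Lce families (66.7%), in 0 of 11 Lce1 promoters and in 0 of 3 Lce3 promoters, against 7.81% of 32851 promoters of the same 300 bases (250 before and 50 after the start). The 8 genes were Lor, Ivl, Flg2, Rptn, Tchhl1, Sbsn, Crnn and Krtdap. The match began 48 bases before the start in Lor, 81 in Krtdap and 96 in both Rptn and Crnn. As the letters allow any middle base, the matches were not all alike: TGAGTCA in Lor and Krtdap, TGATTCA in Rptn and TGAATCA in Crnn. Genes of either direction carried it: Lor, Tchhl1 and Crnn fell in blister libraries and Rptn and Krtdap rose. The TATA box letters stood in 8 of the 26 promoters (30.8%, against 13.6% of all promoters) and the KLF letters in 6 (23.1%, against 48.1%). Among the Lce1 promoters without Lce1l and Lce1m, pairwise identity over the 250 bases had a median of 68.2% (61.4% to 85.6%, 36 pairs). Lce1m, which lies apart from the array, shared 52.7% to 55.6% with the other Lce1 promoters, and Lce1l, at the end of the array next to the Lce3 genes, 50.5% to 57.1%. The median between Lce1 and Lce3 promoters was 51.5%. These matches describe the letters in this window and are no evidence of a bound factor.

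Totals were 7600567 to 15912863 counts per library, and blister 2 was the shallowest. Blister 3 stood between the groups on the first principal component of all tested genes (67.7% of the variance), at 23.1 against 64.9 and 65.8 for blister 1 and 2 and -64.5 to -43.6 for the controls. Sex-linked RNA also differed: Xist was high in blister 1, blister 2 and control 1 (838, 879 and 1409 CPM) and at most 16.9 CPM in the other 3 libraries. Of the cell type markers, all 7 of the neutrophil list rose, with a summed level of 290 to 924 CPM after blistering and 29.5 to 37.1 CPM in control libraries. For the inner root sheath of the hair follicle 6 of 7 markers fell (108 to 886 against 2495 to 4989 CPM), and for the hair shaft 5 of 7 (15.1 to 71.6 against 161 to 289.5 CPM). For dermal fibroblasts 3 of 8 fell (572 to 1363 against 918 to 7033 CPM, the last in control 3), for endothelium 2 of 5 and for melanocytes 3 of 5. Basal keratinocyte markers rose in 3 of 6 cases (42126 to 59962 against 23582 to 23987 CPM) and suprabasal ones in 1 of 8 (12.5%). Over all 14028 genes tested, 9.74% rose and 11.6% fell in edgeR's test (adjusted p under 0.05), so the suprabasal share was near the background. The basal sum is mostly Krt5 and Krt14 (means of 19644 and 28645 CPM in blister libraries). Krt15 of the same list was lower without overlap (1479 against 2307 CPM, edgeR adjusted p = 0.0695), and the other 5 were higher on average. Markers of Langerhans cells and macrophages (lowest adjusted p 0.102) and of T cells (0.246) did not pass. No marker of these lists was at 0 in all 6 libraries, and their part in the results below was not tested.

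Members moved in both directions. Of the 30 members that passed the filter on low counts, 3 rose and 4 fell in edgeR's quasi-likelihood test (adjusted p under 0.05), which is 23.3% of them. Over all 14028 genes tested 21.3% passed, 9.74% upwards and 11.6% downwards, so the members' share was near the background. The median log2 fold change was -0.63 over the members and 0.00 over all genes tested. Lce3c, Rptn and Krtdap rose, and Lor, Crct1, Crnn and Tchhl1 fell. All 12 Lce1 genes were lower on average in blister libraries and 0 passed. The groups did not overlap for 6 tested members with blister lower and for 4 with blister higher, where over all genes tested 23.2% and 21.4% (44.6% together) did not.

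**Figure D1:**
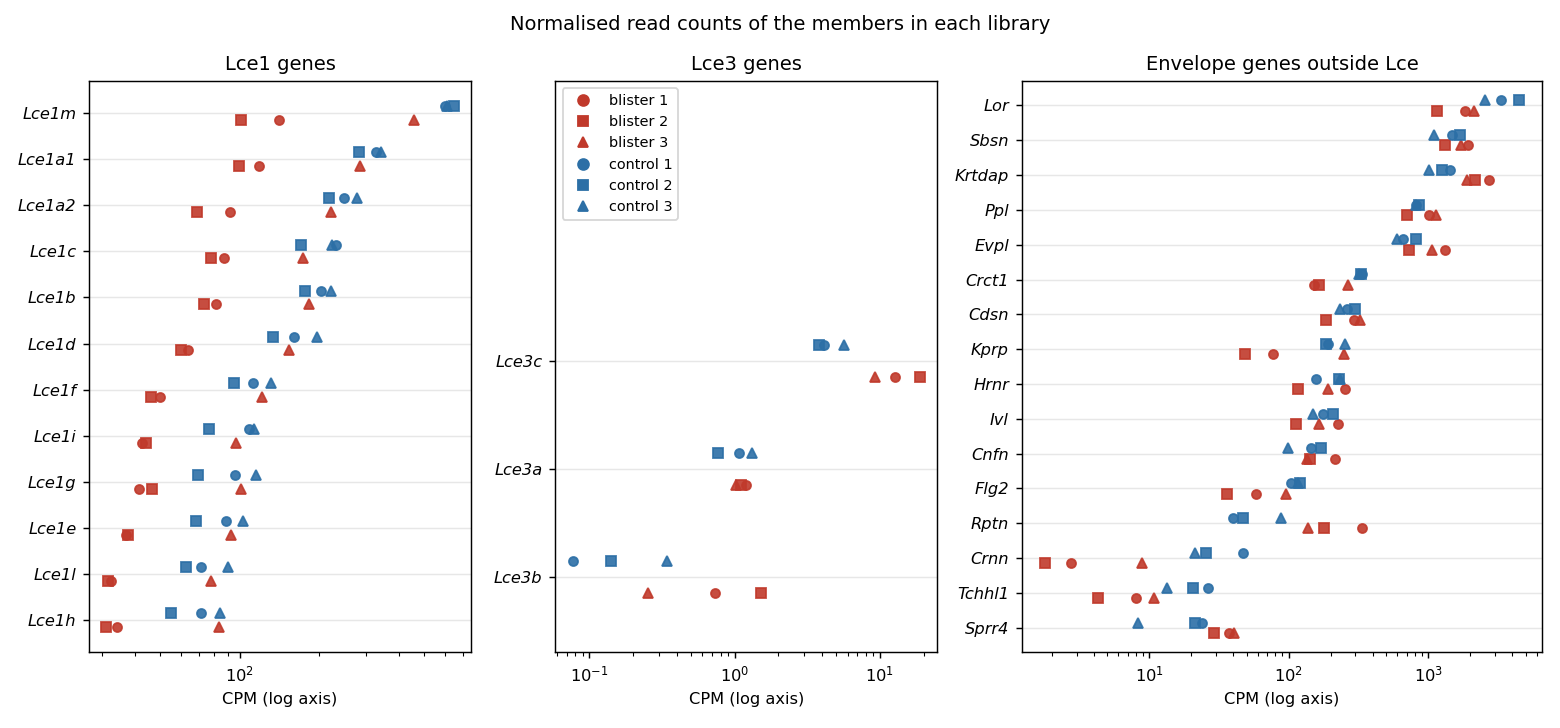
CPM (log axis) of each member in the 6 libraries, one row per gene, for the Lce1 genes (left), the Lce3 genes (middle) and the genes outside the Lce families (right); red symbols are blister and blue symbols control libraries, and the symbol shape gives the replicate. Blister 1 and 2 lie left of all controls for every Lce1 gene while blister 3 lies among them for most, and Lce3c, Rptn and Krtdap have all red symbols to the right.

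The Lce1 genes encode small cysteine-, serine- and glycine-rich proteins that are cross-linked to the inner face of the envelope. Summed over the 12 genes, they stood at 821, 717 and 2045 CPM (blister 1, 2 and 3) against 2319.5, 2055 and 2509 CPM (control 1, 2 and 3). Blister 1 and 2 were far below every control, while blister 3 lay just under the lowest control. The means were 1195 ± 738 and 2295 ± 228 CPM (SD, n = 3 each), 1.92-fold lower in blister, or 2.98-fold lower for blister 1 and 2 alone. With all libraries 0 of 12 genes passed edgeR's test, while 5 had an unadjusted p under 0.05, as did 39% of all genes. DESeq2 called 4 of the 12 and 28.4% of all genes, and limma-voom 1 and 20.8%, with each called Lce1 gene lower. The median log2 fold change was -0.76, and adjusted p ran from 0.0739 to 0.361.

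Without blister 3 all 12 Lce1 genes fell, with a median of -1.28 and edgeR adjusted p of 0.00149 to 0.0169, where 28.3% of all genes tested were called. Without both libraries numbered 3 all 12 fell as well (median -1.18), where 20.9% of all genes were called. Leaving out any 1 of the other libraries gave 0 edgeR calls, with 0 to 2 unadjusted p under 0.05. Blister 3 also differed from blister 1 and 2 in Xist (8.49 against 838 and 879 CPM). The summed inner root sheath markers (886 against 184 and 108 CPM) and neutrophil markers (290 against 556 and 924 CPM) set it apart as well. The part of these in the Lce1 difference was not tested. In the alternative with Xist as a covariate 0 of the 12 genes passed in edgeR, with 6 at an unadjusted p under 0.05, and 12.1% of all genes passed.

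Lce1m, the most abundant of the 12 per kilobase of exon in controls, was at 141, 101 and 456 CPM after blistering and at 600.2, 646 and 609 CPM in controls. It was the single Lce1 gene whose groups did not overlap, 1 of 12 against 23.2% of all genes in that direction, and its log2 fold change was -1.41 ± 0.51 (SE, edgeR adjusted p = 0.0858). Its share of all Lce1 counts was 17.8% ± 4.16 in blister and 27.2% ± 3.76 in control libraries (SD, n = 3; Wilson 95% intervals of single libraries were at most ± 0.944 points, for counting error alone). In every blister library that share was below the lowest control share of 24.3%, which was a description with no test. Lce1a1, the next in level, was at 119, 99.1 and 285 CPM against 328, 283 and 343 CPM, so blister 3 lay above the lowest control. Lce1h, with the smallest difference of the 12, was at 34.1, 31.2 and 83.5 CPM against 71.3, 54.7 and 84.4 CPM (log2 fold change -0.49 ± 0.37, edgeR adjusted p = 0.361).

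In chromosomal order, the 5 genes Lce1a1, Lce1b, Lce1a2, Lce1c and Lce1d had log2 fold changes of -0.82 to -0.96, and the next genes, Lce1e to Lce1i with Lce1l, of -0.49 to -0.69. Lce1j and Lce1k, neighbours in the same array that are not members, had -0.32 and -0.23. This order was noticed after the values were seen and was not tested. The copies are alike: in GENCODE M21 transcripts, 9.66% to 27.1% of the 50-base windows of the 11 genes other than Lce1m occurred in a transcript of another gene, and none of those of Lce1m. How the authors' counting treated such reads is not given, and it could split or drop them, so single values of these 11 genes are uncertain.

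**Figure D2:**
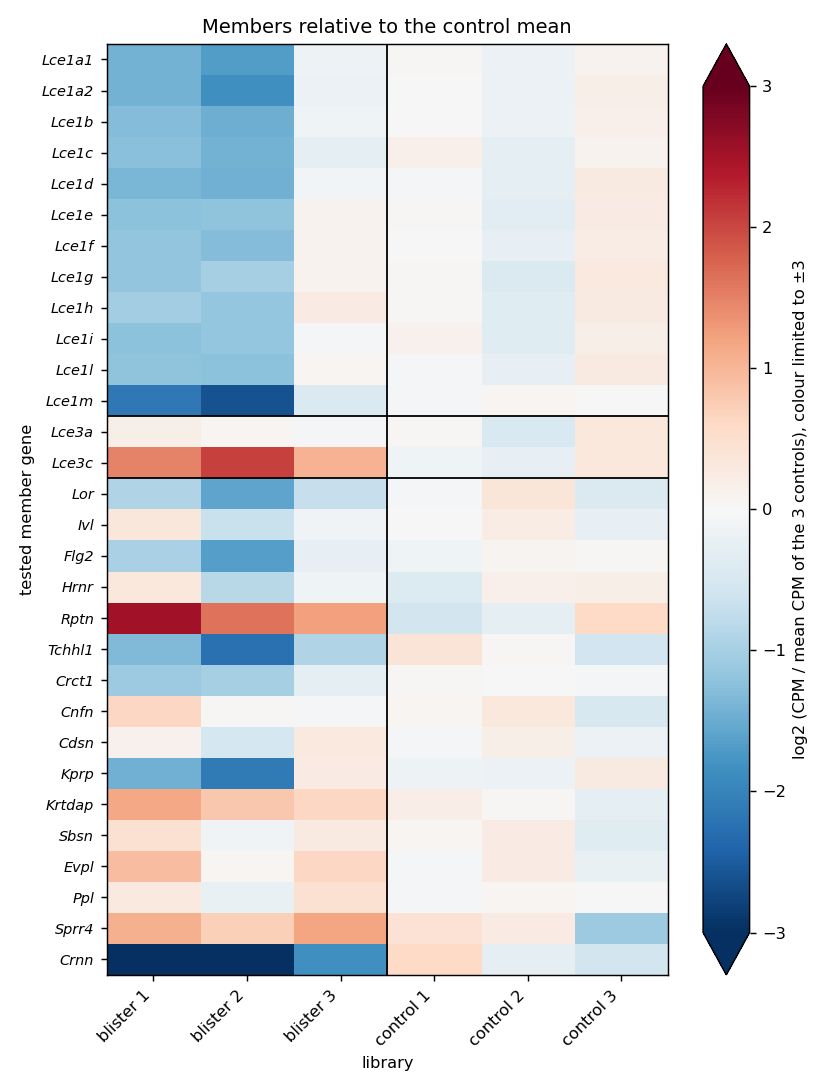
Heat map of log2 of CPM over the mean CPM of the 3 controls, for the 30 tested members (rows) in the 6 libraries (columns), with colours limited to 3 in either direction and lines that separate the Lce1, Lce3 and other genes and the groups. Blister 1 and 2 are blue across all Lce1 genes and in Kprp, Flg2 and Crnn, while blister 3 is close to white in the Lce1 rows and in Kprp.

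Of the 3 Lce3 genes, 2 could be tested and 1, Lce3c, rose. Per kilobase of exon Lce3c stood at 7.97 CPM in controls, where the scarcest of the 12 Lce1 members, Lce1h, stood at 99.4 CPM. Lce1j and Lce1k, which are not members, stood at 53.7 and 49.5 CPM per kilobase in controls. Lce3c was at 12.8, 18.9 and 9.25 CPM after blistering and at 4.14, 3.78 and 5.63 CPM in controls, with each blister library above each control. Its means of 13.6 ± 4.86 and 4.52 ± 0.981 CPM (SD, n = 3) gave a 3.02-fold rise, a log2 fold change of 1.58 ± 0.31 (SE) and an edgeR adjusted p of 0.0166. The call was lost without control 1 (0.0627) and without control 2 (0.0556). Lce3a, with 8 to 23 counts per library, was at 1.02 to 1.19 CPM after blistering and 0.770 to 1.31 CPM in control libraries (edgeR adjusted p = 0.931), and its direction turned with upper-quartile scaling and library size alone. Lce3b had only 8, 11 and 3 counts in the blister group and 1, 2 and 6 in the control group, too few for the test.

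The other Lce3 genes of the complex, which are not members, showed the same side as Lce3c. Lce3d rose from 0.671 to 7.22 CPM and Lce3e from 0.505 to 3.38 CPM (edgeR adjusted p = 0.0142 and 0.0194). Lce3f rose from 2.14 to 5.55 CPM (0.0385). The call of Lce3d was lost without control 1 (0.0572), that of Lce3e without control 1, 2 or 3 (0.0501, 0.0651 and 0.0616) and that of Lce3f when any 1 of the 6 libraries was left out (0.0507 to 0.111) or library size alone was used (0.0768). Of the Lce3c windows 35.7% also occurred in a transcript of another gene, so its values carry the same uncertainty.

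Summed over the 3 Lce3 members, the level was 15.6 ± 5.53 CPM after blistering and 5.76 ± 1.36 CPM in control libraries. For every 100 Lce1 counts there were 1.79, 2.99 and 0.515 Lce3 counts (blister 1, 2 and 3) against 0.228, 0.228 and 0.290 (control 1, 2 and 3). All 3 blister libraries lay above the controls in that ratio, with blister 3 nearest to them. Blister 3 was thus near the lowest control in its Lce1 sum and, at 10.5 CPM, above the highest control of 7.28 CPM in its Lce3 sum.

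Outside the Lce families 2 of 16 genes rose and 4 fell (37.5% called, against 21.3% of all genes), with a median log2 fold change of -0.03. Their summed CPM was 9068 ± 1775 in blister and 9206 ± 1572 in control libraries (SD, n = 3), a difference within the spread of either group. Without Lor, which was lower, the other 15 genes summed to 8680.4, 5930 and 7434 CPM (blister) against 5877, 6289 and 5061 CPM (control). Their mean was 1.28-fold higher in blister, and the groups overlapped through blister 2. In edgeR the count of 6 became 0 without blister 1 and without control 1 (6 and 8 genes kept an unadjusted p under 0.05) and 1 without control 2, against 4 without blister 2 or control 3 and 8 without blister 3. Of all genes 7.2% were called without blister 1, 14.5% without blister 2 and 28.3% without blister 3, and 5.52%, 9.14% and 9.31% without control 1, 2 and 3. With Xist as a covariate it was 3 (12.1% of all genes), with Lor (0.0778), Crct1 (0.0731) and Tchhl1 (0.0619) lost. With the mean log2 CPM of the 8 dermal fibroblast markers as a covariate it was 3 (3.14% of all genes). Crct1 (0.181), Rptn (0.0942) and Krtdap (0.246) were then lost.

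Among the structural precursors, Lor (loricrin, the main envelope protein) was at 1854, 1165 and 2142 CPM after blistering and at 3361, 4472 and 2557 CPM in controls. The groups did not overlap, and the mean fell 2.01-fold, from 3463 ± 962 to 1720.3 ± 502 CPM (SD, n = 3; log2 fold change -1.01 ± 0.28, edgeR adjusted p = 0.0418). The call was lost without blister 1 (0.108), blister 2 (0.0876), control 1 (0.106) or control 2 (0.121). Lor supplied 37.2% ± 4.05 of the counts of the 16 genes in controls and 18.8% ± 3.15 in blister libraries (Wilson intervals at most ± 0.320 points). Per kilobase of exon, Lor (1947 ± 540.5 CPM) and Krtdap (1814 ± 308 CPM) led the members in controls and did not differ beyond their spread. In blister libraries Krtdap led with 3333 ± 629 CPM per kilobase, and Lor stood at 967 ± 282.

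Crct1, a small cysteine-rich gene of the complex, fell from 327 ± 7.05 to 194 ± 62.2 CPM. Its blister libraries were at 153, 164 and 265 CPM and its controls at 333, 328 and 319 CPM, without overlap (edgeR adjusted p = 0.0446). That call was lost without blister 1 (0.139), blister 2 (0.116), control 1 (0.122), control 2 (0.106) or control 3 (0.0955), and it strengthened without blister 3 (0.00373). Kprp, a proline-rich keratinocyte protein gene, repeated the Lce1 pattern, at 77.4, 48.3 and 248 CPM against 190.1, 186 and 254 CPM. It did not pass (edgeR adjusted p = 0.335), and without blister 3 it fell (log2 fold change -1.73, edgeR adjusted p = 0.0069).

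Ivl (involucrin, an early scaffold protein) was at 226, 113 and 166 CPM after blistering and 176, 208 and 149.7 CPM in control libraries. The groups overlapped, with a log2 fold change of -0.08 ± 0.25 (edgeR adjusted p = 0.837). Cnfn (cornifelin), at 164 ± 42.8 against 139 ± 36.5 CPM, did not pass either (0.495) and was lower with library size alone. Sprr4, a small proline-rich gene that neighbours Ivl, was at 37.1, 29.3 and 40.6 CPM against 24.0, 21.1 and 8.31 CPM. Its groups did not overlap, yet it missed the threshold (log2 fold change 1.01 ± 0.36, edgeR adjusted p = 0.0817; DESeq2 gave 0.0276).

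The genes of the filaggrin type, whose proteins join a calcium-binding head to long repeats, split most widely. Rptn (repetin) was at 335, 179.8 and 137 CPM after blistering and at 39.6, 47.2 and 87.9 CPM in controls. The lowest blister library was above the highest control, and the mean rose 3.73-fold, from 58.2 ± 26.0 to 217 ± 104 CPM (SD, n = 3; log2 fold change 1.90 ± 0.41, edgeR adjusted p = 0.0205). Without blister 1, control 1 or control 2 the adjusted p was 0.0526, 0.0696 and 0.068. Hrnr (hornerin), the neighbour of Rptn, was at 255, 116 and 190.1 CPM against 156, 229 and 234 CPM, which overlapped (0.752).

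Crnn (cornulin) showed the largest fold among the members that passed. It was at 2.75, 1.79 and 8.83 CPM after blistering and 47.3, 25.6 and 21.4 CPM in controls, a 7.05-fold fall (log2 fold change -2.77 ± 0.57, edgeR adjusted p = 0.0188). The call was lost without blister 1 (0.0695) and control 1 (0.0614), and the log2 fold change was -3.75 without blister 3. Tchhl1 (trichohyalin-like 1) fell 2.62-fold, from 26.2, 20.7 and 13.4 CPM in controls to 7.98, 4.27 and 10.8 CPM in blister libraries (edgeR adjusted p = 0.0379). Its call was lost without blister 1 (0.111), blister 2 (0.0719), control 1 (0.123) or control 2 (0.0934). Flg2 (filaggrin-2) was at 57.9, 35.9 and 96.0 CPM against 104, 120.3 and 116 CPM, without overlap. It did not pass in edgeR (adjusted p = 0.0899), though it fell without blister 3 (0.0105) and in DESeq2 (0.0319).

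Markers of the inner root sheath moved with Crnn and Tchhl1. Their summed level was 184, 108 and 886 CPM (blister 1, 2 and 3) against 4989, 2843 and 2495 CPM (control 1, 2 and 3). Crnn put the 6 libraries in the same order as that sum, from blister 2 to control 1, and so did Tchhl1. Tchh (trichohyalin), a structural gene of the sheath and one of the markers, lies next to Tchhl1 and fell from 792 to 134 CPM (edgeR adjusted p = 0.0226; 0.0857 without blister 1, 0.0689 without control 1 and 0.0527 without control 2). Lor followed that order as well, except that control 2 lay above control 1. The part of follicle cells in the levels of Crnn and Tchhl1 was not tested.

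**Figure D3:**
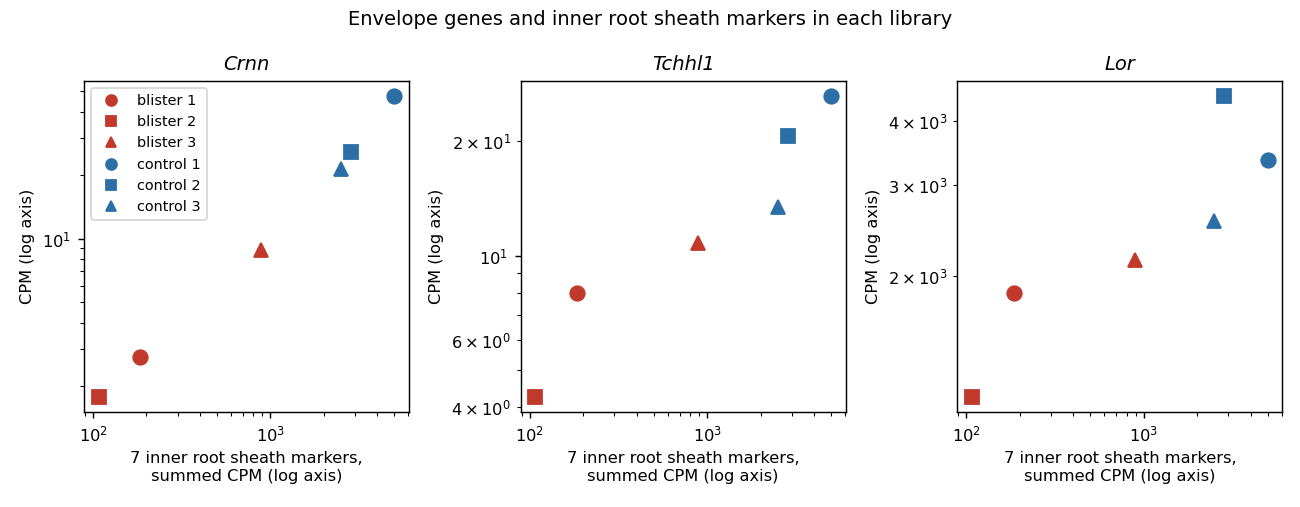
CPM of Crnn, Tchhl1 and Lor (vertical, log axis) against the summed CPM of 7 inner root sheath markers (horizontal, log axis), with 1 point per library, red for blister and blue for control. Crnn and Tchhl1 increase with the marker sum through all 6 libraries, from 1.79 and 4.27 CPM in blister 2 to 47.3 and 26.2 CPM in control 1. Lor does so too, except that control 2 lies above control 1.

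Of the 3 secreted and adhesive genes, Krtdap rose. It encodes a small secreted protein of differentiating layers and was at 2734, 2153 and 1902 CPM after blistering and at 1424, 1262 and 1009.6 CPM in controls. The groups did not overlap, and the mean rose 1.84-fold (log2 fold change 0.88 ± 0.19, edgeR adjusted p = 0.0221). That call was lost without blister 1 (0.0695), control 1 (0.0554), control 2 (0.0669) or control 3 (0.0671). Sbsn (suprabasin), which lies near Krtdap, stood at 1663 ± 313 against 1423 ± 300.3 CPM and did not pass (0.46), and it too was lower with library size alone. Of the Sbsn windows 6.96% also occur in Tmem147os, and without a stated strand setting those reads cannot be assigned. Cdsn (corneodesmosin, the adhesive of the cornified layers) was at 292, 184 and 325 CPM against 260.4, 301 and 234 CPM, with a log2 fold change of 0.01 ± 0.22 (0.975) whose sign turned with upper-quartile scaling and library size alone.

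The plakin genes stood higher on average in blister libraries, Ppl not so with library size alone, and did not pass. Evpl was at 1320.1, 725 and 1062 CPM against 666, 817 and 598 CPM (log2 fold change 0.58 ± 0.23, edgeR adjusted p = 0.112). Blister 2 lay among the controls, and without it Evpl rose (0.0422). Ppl, its binding partner, was at 1022, 705 and 1131 CPM against 812, 858 and 817 CPM (0.457).

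Along the epidermal differentiation complex, genes of unlike direction lay side by side. Read in RefSeq order, Lor and Prr9 (both lower) were followed by a run of Sprr2 and Sprr1 genes. All genes of that run that were tested rose. Sprr4 and Ivl, which did not pass, stood after the run. The Lce1 array came next, with Kprp inside it, and then the Lce3 genes. Crct1 (lower), Lce1m, Crnn (lower), Flg2, Hrnr, Rptn (higher), Tchh and Tchhl1 (both lower) closed the series before S100a11. Of 32 tested genes of the complex that are not members (a list of Sprr, S100, remaining Lce and neighbouring genes), 20 rose and 4 fell (75% called, against 21.3% of all genes), with a median log2 fold change of 1.27. The list holds S100a8 and S100a9, which are also neutrophil markers, and Tchh, a sheath marker. Without these 3 genes 18 of 29 rose and 3 fell, with a median of 1.17. That count of 24 was 15 without blister 1, 12 without control 1 and 14 without control 2. The 3 with the smallest p-values were Sprr2h, Sprr2g and Sprr1b, envelope precursors at 120.1, 17.9 and 654 CPM after blistering and 15.1, 0.465 and 73.0 CPM in control libraries (edgeR adjusted p = 0.00343, 0.00343 and 0.00367).

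**Figure D4:**
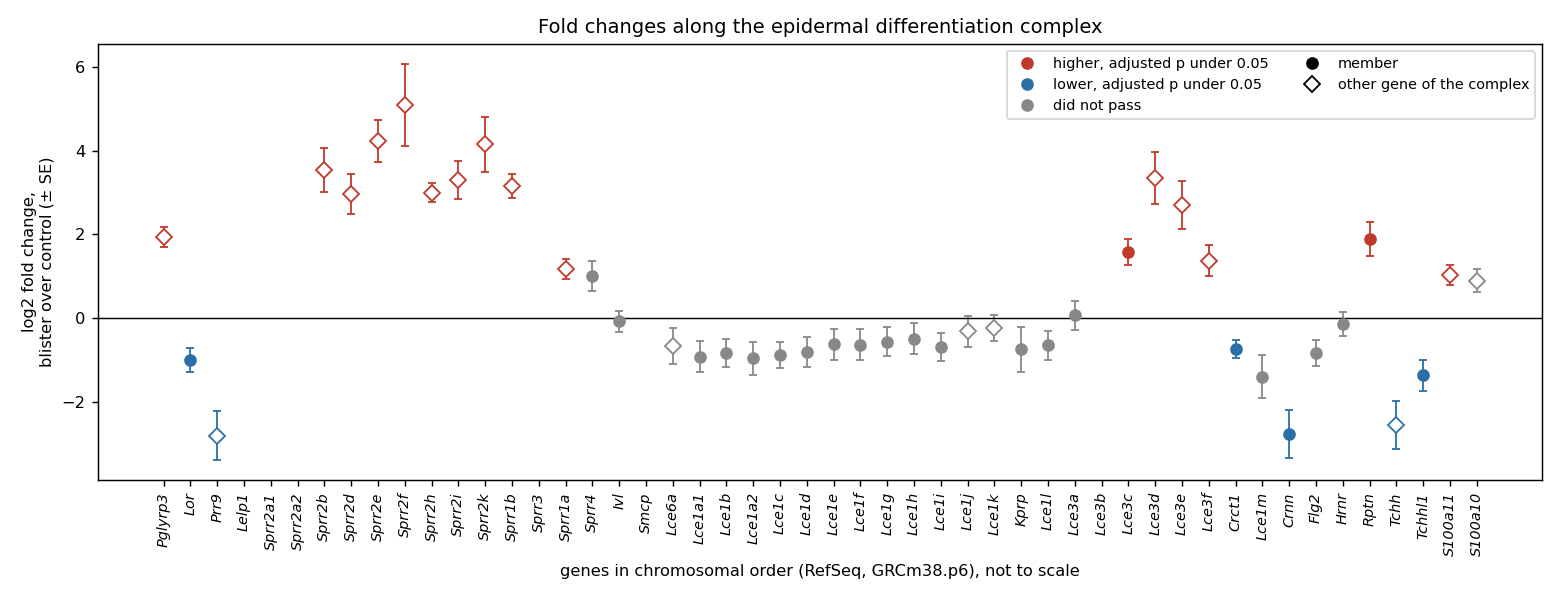
Log2 fold change of blister over control (± SE) for members (filled circles) and other listed genes (open diamonds) of the epidermal differentiation complex in chromosomal order, spaced evenly and not to scale; red and blue passed at an adjusted p under 0.05, grey did not, and genes without a point were not tested. The Lce1 members of the array form a grey run between -0.49 and -0.96, next to the Lce3 genes, of which Lce3c is at 1.58, and Crnn and Rptn mark the extremes of the members at -2.77 and 1.90.

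Set against the keratins of the layers above the basal one, Lor and the summed Lce1 genes were lower in every blister library than in any control. Krt1 and Krt10 together were at 132166, 43378 and 70838 CPM after blistering and at 39433, 63351 and 38294 CPM in controls, so the groups overlapped. Neither gene passed in edgeR (adjusted p = 0.139 for Krt1 and 0.239 for Krt10), while DESeq2 called Krt1 higher (0.0494). Per 1000 counts of Krt1 and Krt10, Lor had 14.03, 26.8 and 30.2 counts in blister and 85.2, 70.6 and 66.8 in control libraries. The summed Lce1 genes had 6.21, 16.5 and 28.9 against 58.8, 32.4 and 65.5. Blister 3 was below every control here, as it was narrowly in CPM (2045 against 2055 in control 2). Ivl, at 1.71, 2.60 and 2.34 against 4.45, 3.29 and 3.91, and Flg2, at 0.438, 0.828 and 1.36 against 2.64, 1.90 and 3.03, were also lower without overlap. On this scale 5 of 12 Lce1 genes and 8 of 16 genes outside Lce were lower without overlap and 0 of the 31 members were higher, where on the same scale 20.6% of all genes tested were lower and 1.3% higher. Krtdap (20.7, 49.6 and 26.8 against 36.1, 19.9 and 26.4) and Rptn overlapped. The scale rests on 2 keratins whose sum itself ranged from 43378 to 132166 CPM within the blister group, and these values are a description with no test.

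**Figure D5:**
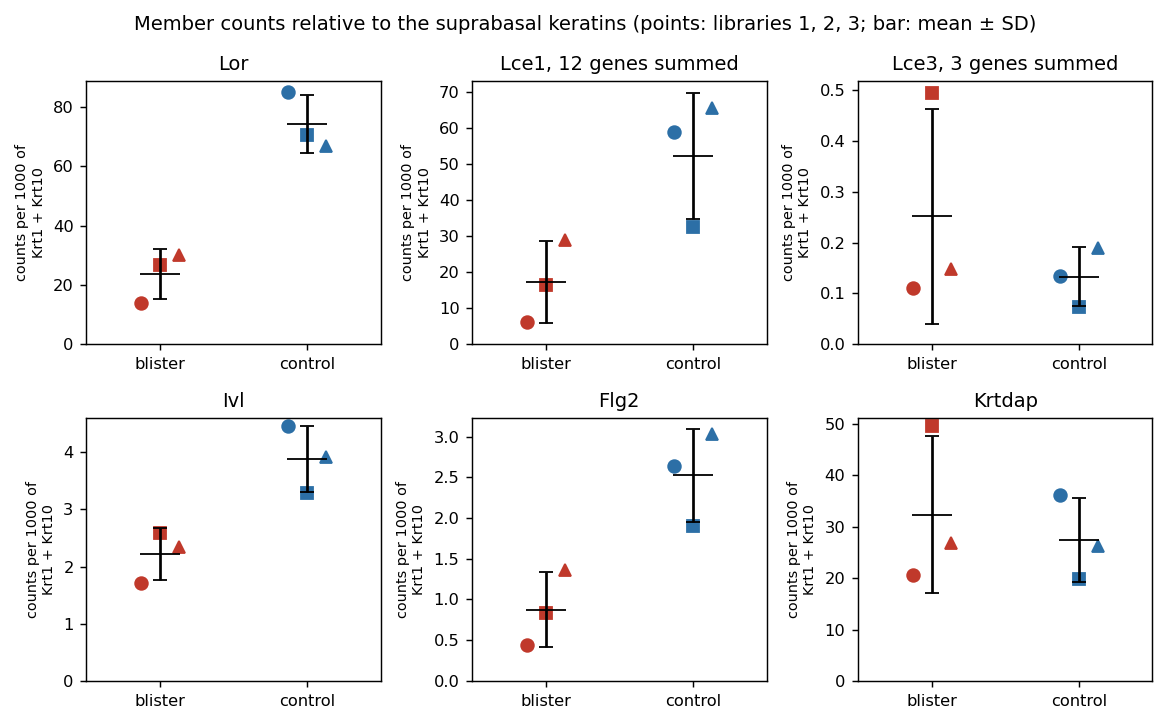
Counts per 1000 counts of Krt1 and Krt10 (vertical, linear from 0) for Lor, the summed Lce1 and Lce3 genes, Ivl, Flg2 and Krtdap in blister and control libraries; points are libraries 1, 2 and 3 and black bars the mean ± SD of 3. Lor, the Lce1 sum, Ivl and Flg2 separate the groups, with Lor at 14.03 to 30.2 against 66.8 to 85.2, and the Lce3 sum and Krtdap overlap.

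Of 21 tested genes of cross-linking, processing and barrier lipids, which assemble the envelope, 3 rose and 1 fell, 19% against 21.3% of all genes, with a median log2 fold change of 0.24. With library size alone 1 rose and 3 fell, with a median of -0.015. Ctsl, a lysosomal protease, rose from 174 to 330.5 CPM, and Klk7, which cleaves corneodesmosomes, from 493 to 878 CPM. Aloxe3, a lipoxygenase of barrier lipids, fell from 79.1 to 41.4 CPM (edgeR adjusted p = 0.0231, 0.0233 and 0.0242 in that order). Ctsl was lost without blister 2 (0.0529), control 1 (0.0806) or control 2 (0.0751), Klk7 without blister 1 (0.0715), blister 2 (0.0506) or control 1 (0.0681), and Aloxe3 without blister 1 (0.0749), control 1 (0.0718) or control 2 (0.0741). The count for the list was 1 without blister 1, 0 without control 1 and 1 without control 2, while DESeq2 called 10. With library size alone Ctsl (0.0767) and Klk7 (0.0564) were lost, and with the dermal marker covariate all 3. Tgm1, the main cross-linking transglutaminase, was at 399, 214 and 242 CPM against 165, 201 and 138 CPM, without overlap. It did not pass in edgeR (adjusted p = 0.0694), while DESeq2 called it higher (0.0171).

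Among 25 regulators of terminal differentiation 4 rose and 2 fell (24%, against 21.3% of all genes), with a median log2 fold change of 0.20. Ehf, an epithelial ETS factor, rose from 10.2 ± 2.72 to 36.3 ± 2.68 CPM (SD, n = 3; edgeR adjusted p = 0.00641). Prdm1, a repressor known from the granular layer, fell from 58.6 ± 5.45 to 28.1 ± 5.18 CPM (0.00841). Nfe2l2, which drives oxidative stress genes, rose from 55.3 ± 2.05 to 94.5 ± 14.9 CPM (0.0124; 0.0559 without control 1). In blister 1, 2 and 3 Ehf was at 33.6, 39.0 and 36.3 CPM and Prdm1 at 25.0, 25.2 and 34.0 CPM. Blister 3 lay on the side of blister 1 and 2 in all 3 genes. The choice of these genes by smallest p-value over all libraries favours such agreement, so it says nothing about blister 3 in other regulators. With the dermal marker covariate Prdm1 (0.0774) and Nfe2l2 (0.138) were lost, and Ehf was kept under every alternative. The count for the list was 2 without control 1 and 3 without control 2, while DESeq2 called 10.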

How the data were processed

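RNA was measured by sequencing in 3 blister and 3 control libraries. The authors deposited raw counts per gene for each library, aligned with HISAT2 2.0.0 and counted with featureCounts on builds NCBIM37 and mm9, per the submitters' processing notes. Not given in the sources used here: the featureCounts version, the strand setting and how reads with several matches were treated. Totals were 7600567 to 15912863 counts, so rare genes such as Lce3b were measured with few reads, and Wilson intervals cover counting error only.

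The members and gene lists were chosen with earlier results of these data known. Counts were filtered with filterByExpr (minimum count 10, minimum total 15), scaled by TMM and compared with edgeR 4.0.16 (quasi-likelihood F test, R 4.3.3), with Benjamini-Hochberg adjustment over all 14028 genes tested and a threshold of 0.05. The SE is the absolute log2 fold change over the square root of F. CPM use the TMM library sizes. Every member is accounted for, and from each list of assembly genes, regulators and other complex genes the text names the 3 called genes with the smallest p-values, with Tgm1, Krt1 and Krt10. Krt5, Krt14, Krt15, Xist, Tchh and the neighbouring Lce genes were added after their values were seen. Alternatives were other scalings and filters, a replicate block, Xist and dermal marker covariates, DESeq2 1.42.0, limma-voom (limma 3.58.1), robust edgeR, another prior count and each library left out. In simulated data for this comparison (13848 genes), 1 of 67 changed genes was recovered at 1.5-fold, 23 of 66 at 2-fold and 53 of 65 at 4-fold, with 7 of 13650 unchanged genes called. Far fewer genes were changed there than the 2993 called in the data, so the recovery in the data may differ. Exon lengths and shared windows came from GENCODE M21, promoters and gene order from RefSeq (GRCm38.p6), and no coordinate was carried between builds. No 2 libraries of a group agreed within sampling noise.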

Additional observations from a re-analysis of the deposited data

How the results depend on the processing

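Of 599 values of the 30 tested members over 20 settings, 500 kept their direction and side of the threshold, 33 lost and 43 gained a call, and 23 turned direction. The all-gene count was 2993, 1696 with the Xist covariate, 440 with the dermal marker covariate and 785 to 4061 with single libraries left out. The share of calls that were higher in blister was 45.7%, 34.4% with upper-quartile scaling and 16.1% with library size alone, which moved the median of all genes by -0.25. Lce1 calls (0) were 1 with library size alone, 1 in limma-voom, 4 in DESeq2, 0 to 12 with single libraries left out and 12 without both libraries numbered 3. Lce3 calls (1) ran from 0 to 1 over the libraries left out. Calls outside Lce (6) were 3 with either covariate and 9 in DESeq2, and ran from 0 to 8 with single libraries left out. Assembly calls (4) were 1 with the dermal covariate and 10 in DESeq2 and ran from 0 to 5 with single libraries left out. Regulator calls (6) were 2 with the dermal covariate and 10 in DESeq2 and ran likewise from 2 to 8, and those of the other complex genes (24) from 12 to 26. Same-numbered libraries did not deviate together (r = 0.21, -0.26 and 0.01, and blister 1 correlated best with control 2, at 0.34). So few correlations cannot settle whether the numbers pair libraries. With the replicate block 2876 of 14028 genes tested passed. Among them were 3 genes outside Lce and 4 Lce1 genes, Lce1a2, Lce1b, Lce1c and Lce1d (edgeR adjusted p of 0.0399 to 0.0469). Lor (edgeR adjusted p = 0.0925), Rptn (0.0503) and Tchhl1 (0.0659) did not pass with it. All 12 Lce1 genes then had an unadjusted edgeR p under 0.05, as did 5486 of 14028 genes tested.

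No log2 fold change that turned belonged to a called gene. With library size alone they were -0.20 for Lce3a, -0.023 for Cnfn, -0.25 for Cdsn, -0.034 for Sbsn and -0.057 for Ppl. With the dermal covariate they were -0.30 for Cnfn, -0.46 for Cdsn, -0.29 for Sbsn, -0.072 for Ppl and -0.25 for Krt10. With upper-quartile scaling Lce3a was at -0.0020 and Cdsn at -0.057. Cdsn was also at -0.020 under the 5 CPM filter, -0.019 with the replicate block, -0.029 in limma-voom, -0.23 without both libraries numbered 3 and -0.15 to 0.23 with single libraries left out. Single libraries left out gave -0.34 to 0.15 for Ivl, -0.41 to 0.12 for Hrnr and -0.11 to 0.26 for Lce3a. The cause of these changes was not tested. Lce3a gave no value under the 5 CPM filter. Depth limits Lce3a and Lce3b, with 1 to 23 counts per library.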
